A study of Mus musculus with 4 samples.

Results

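The NF-κB subunits and their inhibitors were followed in Long RNA-seq of cultured female germline stem cells (FGSCs), a mouse cell line whose labels give the ovary as its tissue and germ stem cells as its cell type. The set held 10 genes chosen by symbol from the 53465 genes of the deposited table. Its 5 subunit genes were *Nfkb1*, *Nfkb2*, *Rel*, *Rela* and *Relb*, and its 5 inhibitors and feedback targets were *Nfkbia*, *Nfkbib*, *Nfkbie*, *Tnfaip3* and *Birc3*. The study compared 2 libraries of cells with a control shRNA (shNC) with 2 libraries of cells with an shRNA against *Nat10* (shNAT10), the gene of the RNA acetyltransferase that writes N4-acetylcytidine (ac4C). By the study's methods and supplement, either shRNA was delivered by lentivirus. Puromycin or blasticidin S was used to keep the cells that had taken up a vector. The labels give no age, strain or clone. The study calls the libraries of a group biological replicates, and neither source used here says whether they came from separate cultures, so p-values measure the spread between these libraries, which may be technical.

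NF-κB is a family of dimeric transcription factors that drive inflammatory, survival and developmental genes. In resting cells the dimers are held in the cytoplasm by IκB proteins, and receptor signals activate IκB kinase, which marks IκB for destruction and frees the dimers to enter the nucleus. There they bind κB sites in DNA and also switch on some of their own inhibitors, which end the response. Fibroblasts, leukocytes and epithelial cells all use the pathway, so its RNAs are not specific to a cell type.

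All values are FPKM, fragment counts scaled for exon length and library size, so levels can be set side by side between genes. *Nat10* itself was at 7.79 and 5.42 FPKM in shNC and at 2.95 and 3.04 FPKM in shNAT10. The groups did not overlap, and *Nat10* was lower in shNAT10 by the limma test used throughout (log2 fold change -1.09, SE 0.206, limma adjusted p = 0.123). The call needs both shNAT10 libraries: without shNAT10 replicate 1 the log2 fold change was -1.07 and without shNAT10 replicate 2 it was -1.11, and neither value passed the test. A gene was called where its fold change was over 1.2 and its unadjusted limma p was at most 0.05, with the Benjamini-Hochberg adjusted p over all 20116 genes tested beside it. An exact permutation test of 2 libraries against 2 cannot give a p below 0.33.

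The libraries held 11057922 to 14902438 recovered fragments, of which rRNA-related loci took 48.0% and 37.9% in shNC and 26.3% and 28.2% in shNAT10. That left 7748635 to 9888202 fragments on other genes, and the 10 members had between 294 and 7691 fragments each over the 4 libraries. In these RNA values the germ cell markers of the label were mostly absent. Of 8 germ cell markers 1 (*Ifitm3*) had a mean of at least 0.1 FPKM and 4 were at 0 in all 4 libraries, while all 8 pan-leukocyte markers passed that level, as did 5 of 9 mast cell, 6 of 8 macrophage and 6 of 7 fibroblast markers, against 1 of 8 lymphocyte and 2 of 7 granulosa cell markers. Of the defining germ cell genes, *Dazl*, *Pou5f1*, *Dppa3* and *Tfap2c* were those at 0. *Ddx4*, which the study uses as its germ cell marker, had 2 fragments over the 4 libraries. *Prdm1* (Blimp1) had 24. The study also looked at germline markers in FGSCs by RT-PCR and immunofluorescence, which were not analysed here. The summed pan-leukocyte markers stood at 482 and 529 FPKM in shNC and at 397 and 415 FPKM in shNAT10, with 5 of the 8 markers called lower and 0 higher. The summed macrophage markers were at 51.9 and 54.5 against 42.8 and 46.9, most of it from *Adgre1* (called lower, log2 fold change -0.37), while *Lyz2* was called higher (1.35). The summed mast cell markers ranged from 313 to 323 over the 4 libraries, most of it from *Cpa3*, and held 1 marker called higher (*Ms4a2*, 2.12) and 2 called lower (*Kit*, -0.60, and *Gata2*, -0.33), while the mast cell genes *Fcer1a* and *Tpsb2* were at 0 in all libraries. The summed fibroblast markers were at 51.9 and 44.96 against 60.8 and 51.6, with 2 called higher (*Col3a1*, 0.98, and *Pdgfra*, 0.83) and 0 lower. Where such a sum differs in bulk RNA, fewer cells of a type and less RNA per cell cannot be told apart. The parts of these marker lists and of the rRNA share in the values below were not tested.

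All 10 members were expressed above the filter of a mean of 0.1 FPKM and were tested. Ordered by their mean level over the 4 libraries, they ran from *Nfkbia* (25.6 FPKM) through *Nfkbib* (18.2), *Nfkb2* (16.0), *Nfkb1* (12.4), *Relb* (3.90), *Rela* (2.30), *Rel* (2.20), *Nfkbie* (1.85) and *Birc3* (1.80) to *Tnfaip3* (1.12). This order depends on the exon lengths used, 12061 bases for *Nfkb1*, 4584 for *Nfkb2* and 1610 for *Nfkbia*. By fragments over the 4 libraries *Nfkb1* had the most, with 7691 against 3803 for *Nfkb2* and 2177 for *Nfkbia*. In FPKM, the largest step in this order lay between *Nfkb1* and *Relb*, which parts the 4 most abundant members from the other 6. *Nfkbia* held rank 2 in shNC and rank 1 in shNAT10, and *Nfkbib* rank 1 in shNC and rank 3 in shNAT10. Among neighbours in this order, the ranges of *Nfkbia* and *Nfkbib* and of *Nfkb2* and *Nfkb1* overlapped in shNC, where *Nfkbie* lay below *Birc3* in both libraries. In shNAT10 the ranges of *Nfkbib* and *Nfkb2* overlapped, and *Rela* lay below *Rel* in both libraries.

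Of the 10 members, 1 was called higher in shNAT10, against 8.41% of all genes tested, and 0 were called lower, against 7.83% of all genes tested. The gene that rose was *Nfkbia*, the classical IκB inhibitor. None of the 10 had an adjusted p under 0.05 by limma, against 0.437% of all genes tested, while 1 had an unadjusted p under 0.05, against 16.6%. In a limma-voom fit on fragments recovered from the FPKM, 1 member (*Nfkbia*) had an adjusted p under 0.05, where 7.88% of all genes tested did, and 2 members had an unadjusted p under 0.05, where 20% did. Both shNAT10 libraries lay above both shNC libraries for 2 members, a pattern that 23.9% of all genes tested showed, and below them for 3 members, a pattern that 24.1% showed. The member counts are therefore near those background shares. The median log2 fold change was -0.08 over the 5 subunits and -0.18 over the 5 inhibitors and feedback targets, beside 0.01 over all genes tested. Without shNC replicate 2 the median of the inhibitors and feedback targets was 0.24 instead, and without shNC replicate 1 that of the subunits was 0.02, so the sign of each rested on 1 library.

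**Figure D1:**
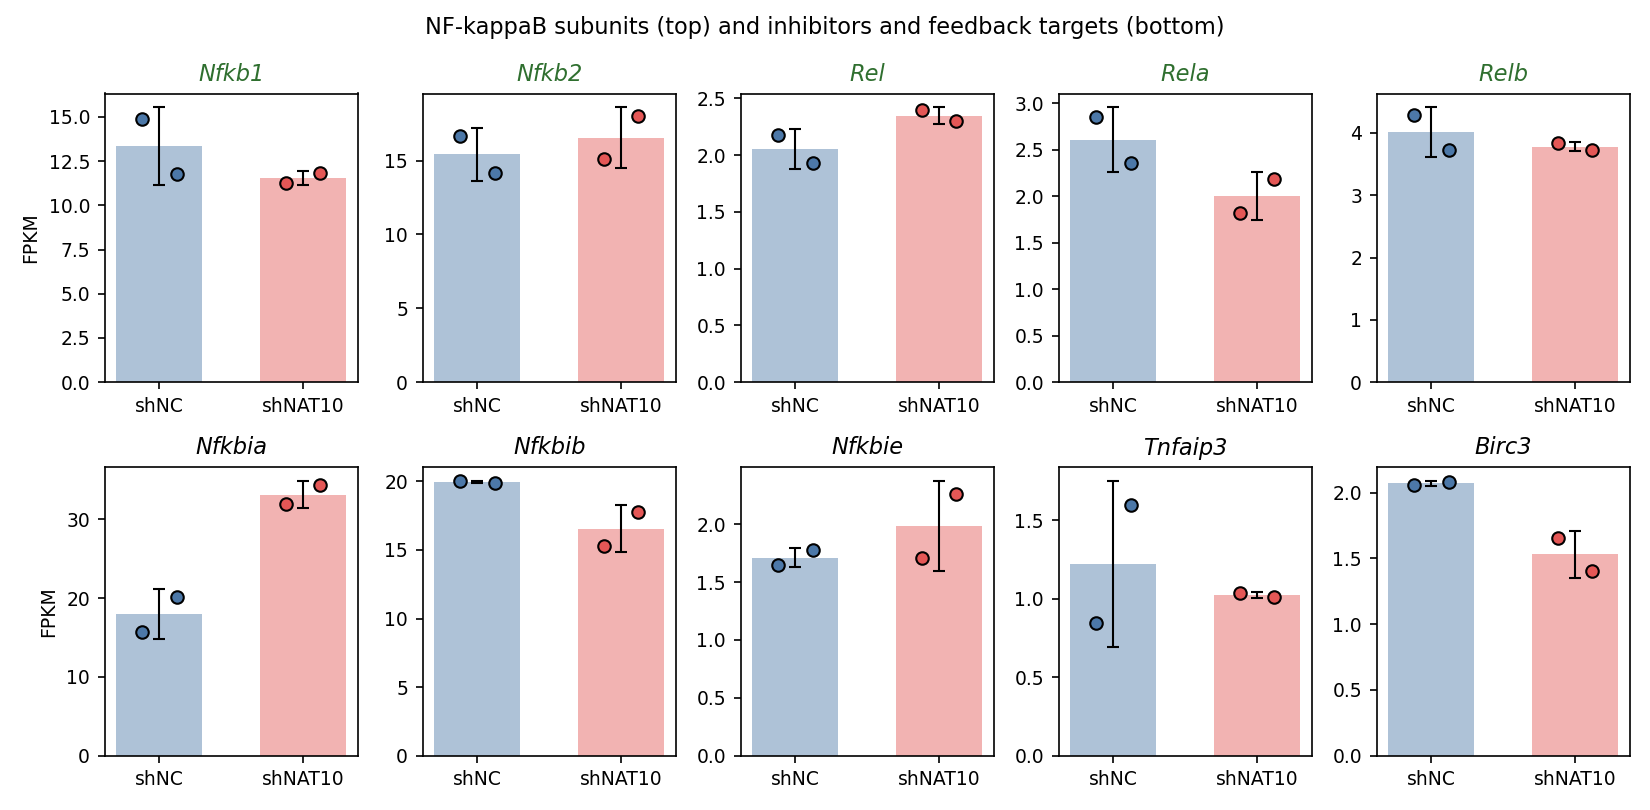
Level of each member in FPKM (y axis, starting at 0, scaled per gene) in the 2 shNC and the 2 shNAT10 libraries. Points are libraries, bars are group means and error bars are SD (n = 2). The *Nfkbia* points of shNAT10, at 31.9 and 34.4 FPKM, stand well above those of shNC, at 15.7 and 20.2 FPKM, while those of *Nfkb1*, *Nfkb2*, *Relb*, *Nfkbie* and *Tnfaip3* overlap between the groups.

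*Nfkb1* encodes p105, which is processed to p50, the partner of RelA in the canonical pathway. It was at 14.9 and 11.8 FPKM in shNC and at 11.3 and 11.8 FPKM in shNAT10, so the second library of each group stood at nearly the same level and the groups overlapped. The log2 fold change was -0.20 (95% interval -0.58 to 0.18, limma adjusted p = 0.562). Without shNC replicate 2, *Nfkb1* was called lower (log2 fold change -0.37), and without shNC replicate 1 its value was -0.03. *Nfkb2* encodes p100, precursor of p52 and at the same time an inhibitor of RelB dimers. Its libraries were at 16.7 and 14.2 FPKM in shNC and at 15.1 and 18.0 FPKM in shNAT10, an overlapping pair of ranges with a log2 fold change of 0.10 (95% interval -0.27 to 0.47). Exons of *Nfkb2* share 531 bases with an opposite-strand gene, ENSMUSG00000118087, and 299 bases with *Psd* on the opposite strand, the latter at 0.66 to 0.79 FPKM. The sources used here do not state whether fragments were counted by strand, so reads from those bases cannot be assigned.

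*Rela* encodes p65, the transactivating subunit of the canonical dimer. It was at 2.85 and 2.36 FPKM in shNC and at 1.82 and 2.19 FPKM in shNAT10, with both shNAT10 libraries below both shNC libraries. The log2 fold change of -0.36 (95% interval -0.86 to 0.14) did not pass the test (limma adjusted p = 0.432). *Rel* encodes c-Rel, a transactivating subunit best known from lymphocytes and other leukocytes. Its libraries were at 2.18 and 1.93 FPKM in shNC and at 2.40 and 2.30 FPKM in shNAT10. Here both shNAT10 libraries were the higher ones, but the log2 fold change was small at 0.19 (95% interval -0.23 to 0.61, limma adjusted p = 0.597). *Relb* encodes the transactivating partner of p52 in the non-canonical pathway. It was at 4.30 and 3.73 FPKM in shNC and at 3.83 and 3.73 FPKM in shNAT10, and shNC replicate 2 and shNAT10 replicate 2 were at the same level. The log2 fold change was -0.08 (95% interval -0.44 to 0.28). The intervals of the 5 subunits all include 0, and that of *Rela*, the widest, reaches a log2 fold change of -0.86.

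**Figure D2:**
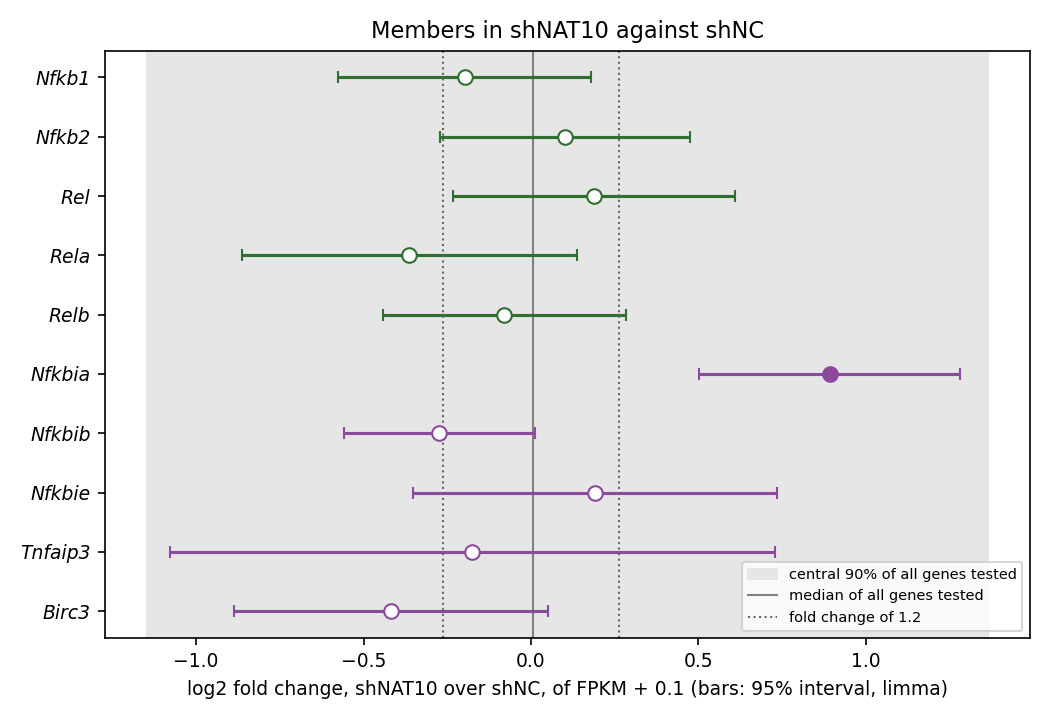
Log2 fold change of each member (rows), shNAT10 over shNC, of FPKM + 0.1, with 95% intervals from limma as horizontal bars. Green marks subunits and purple inhibitors and feedback targets; the filled circle is the called gene, the grey band holds the central 90% of all genes tested, and dotted lines mark a fold change of 1.2. *Nfkbia* at 0.89 is the member whose interval lies above 0; the other intervals include 0.

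*Nfkbia* encodes IκBα, which binds p65-p50 dimers, is degraded within minutes of a signal and is then resynthesised from a gene that NF-κB itself switches on. It was at 15.7 and 20.2 FPKM in shNC and at 31.9 and 34.4 FPKM in shNAT10, from 297, 386, 645 and 849 recovered fragments. Both shNAT10 libraries were above both shNC libraries, and the gap between the groups was wider than the gap within either. The mean rose from 18.0 ± 3.17 to 33.2 ± 1.75 FPKM (SD, n = 2), a log2 fold change of 0.89 (SE 0.147, 95% interval 0.50 to 1.28, limma adjusted p = 0.103). In the limma-voom fit on recovered fragments it was 0.90 with an adjusted p of 7.7e-05. Leaving out 1 library at a time gave log2 fold changes of 0.71 to 1.07, and the call was lost without shNAT10 replicate 1 (0.95) and without shNAT10 replicate 2 (0.84). The gene lies on chr12:55489410-55492647 (GRCm38, minus strand), and none of its exons overlap those of another gene in GENCODE M21.

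*Nfkbib* encodes IκBβ, which holds some of the same dimers but is not a strong feedback gene. It was at 20.0 and 19.9 FPKM in shNC and at 15.3 and 17.7 FPKM in shNAT10, so both shNAT10 libraries lay below a tight shNC pair. The log2 fold change of -0.27 (95% interval -0.56 to 0.01, limma adjusted p = 0.316) missed the call by its p of 0.0564, an unadjusted p from limma, and without shNAT10 replicate 2 *Nfkbib* was called lower at -0.38. Without shNAT10 replicate 1 its value was -0.17 and was not called. *Nfkbib* shares 314 exon bases with *Ccer2* and 42 with *Sirt2*, both on the opposite strand. *Nfkbie* encodes IκBε, an inhibitor that is induced late in a response. Its libraries were at 1.65 and 1.77 FPKM in shNC and at 1.71 and 2.26 FPKM in shNAT10. The first shNAT10 library sat inside the shNC range, and the log2 fold change was 0.19 (95% interval -0.35 to 0.74).

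*Tnfaip3* encodes A20, a ubiquitin-editing enzyme that dampens signalling upstream of IκB kinase and is a textbook feedback target. It was at 0.85 and 1.60 FPKM in shNC and at 1.04 and 1.01 FPKM in shNAT10, so both shNAT10 libraries lay inside the shNC range. The shNC replicates were 0.84 apart on the log2 scale, more than the difference between the groups (-0.18, 95% interval -1.08 to 0.73). Without shNC replicate 1 the log2 fold change of *Tnfaip3* was -0.59 and without shNC replicate 2 it was 0.24. *Birc3* encodes cIAP2, a ubiquitin ligase of TNF receptor complexes and an NF-κB target. It was at 2.06 and 2.09 FPKM in shNC and at 1.65 and 1.41 FPKM in shNAT10, with both shNAT10 libraries below. The log2 fold change was -0.42 (95% interval -0.89 to 0.05, limma adjusted p = 0.345), and the limma-voom fit gave -0.45 with an unadjusted p of 0.0456 and an adjusted p of 0.236.

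The makeup of the 3 IκB genes differed between the groups. *Nfkbia* made up 42.0% and 48.3% of the summed FPKM of *Nfkbia*, *Nfkbib* and *Nfkbie* in shNC and 65.2% and 63.2% in shNAT10. *Nfkbib* made up 53.6% and 47.5% in shNC and 31.3% and 32.6% in shNAT10. The level ratio of *Nfkbia* to *Nfkbib* was thus 0.785 and 1.02 in shNC and 2.08 and 1.94 in shNAT10, and the groups did not overlap. A ratio of genes within a library does not depend on how that library was scaled, but its level depends on the exon lengths used. These ratios hold *Nfkbia*, the member already called, and were given as a description with no test.

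Among the subunits, *Nfkb1* and *Nfkb2* together made up 76.4% to 78.4% of the summed subunit FPKM in the 4 libraries. Such shares, sums and ratios depend on the exon lengths used, which differ between these genes. The ratio of *Nfkb1* to *Nfkb2* was 0.894 and 0.832 in shNC and 0.748 and 0.656 in shNAT10, lower in both shNAT10 libraries. *Rela* made up 6.97% and 6.94% of the subunit sum in shNC against 5.28% and 5.75% in shNAT10, and *Rel* 5.33% and 5.68% against 6.97% and 6.04%. Shares of 1 sum are tied to each other, so these values are a description with no test. The subunit sum stood at 40.9 and 34.0 FPKM in shNC and at 34.4 and 38.0 FPKM in shNAT10, so it overlapped between the groups. The ratio of the IκB sum to the subunit sum was 0.914 and 1.23 in shNC and 1.42 and 1.43 in shNAT10 and did not overlap between the groups.

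**Figure D3:**
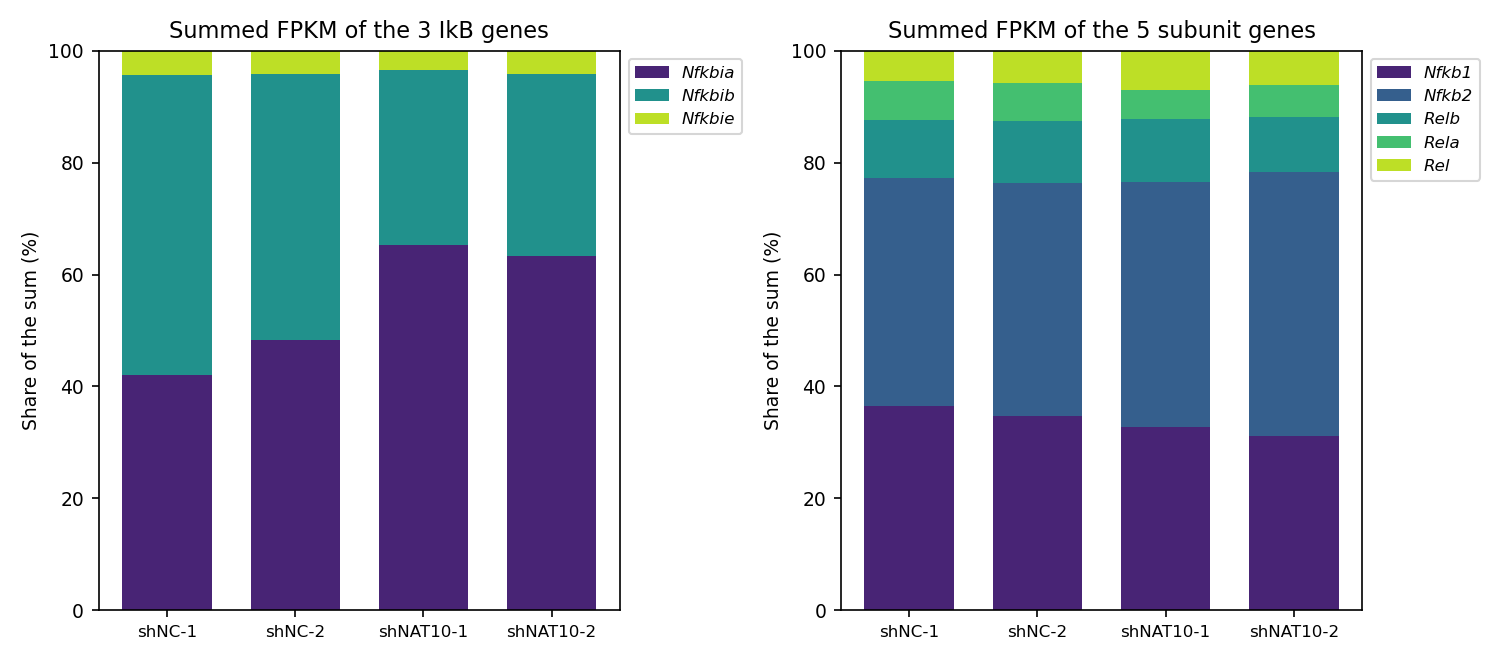
Share in % (y axis) of each IκB gene in the summed FPKM of the 3 IκB genes (left) and of each subunit gene in the summed FPKM of the 5 subunit genes (right), for each of the 4 libraries (x axis). The *Nfkbia* share is 42.0% and 48.3% in shNC against 65.2% and 63.2% in shNAT10, while *Nfkb1* and *Nfkb2* hold at least 76.4% of the subunit sum in every library.

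Since NF-κB feedback acts through κB sites, the promoters of the members were searched for the κB consensus of 10 bases on both strands, in RefSeq promoter sequences (GRCm38.p6) of 250 bases before to 50 bases after each start site. Sequences were found for 8 of the 10 members, and *Nfkb1* and *Relb* had no entry. A match was held by 5 of these 8, namely *Nfkb2*, *Rel*, *Nfkbia*, *Nfkbie* and *Tnfaip3*, and by 2581 of all 27025 genes with an entry (9.55%). *Rela*, *Nfkbib* and *Birc3* had no match in this window. The matches upstream of the start site are shown because feedback genes are known for such sites. They are written 5′ to 3′ on the gene's strand with 10 flanking bases and the match in capitals. A gene with several matches is shown with 1 of them. The match of *Nfkbia* fits the consensus on the opposite strand, so its letters read as the reverse complement.
*Nfkbia*, chr12:55492657-55492686, minus strand: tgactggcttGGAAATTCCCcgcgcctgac
*Nfkbie*, chr17:45555584-45555613, plus strand: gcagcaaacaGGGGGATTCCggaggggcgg
*Tnfaip3*, chr10:19015516-19015545, minus strand: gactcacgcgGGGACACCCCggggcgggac
*Nfkb2*, chr19:46304688-46304717, plus strand: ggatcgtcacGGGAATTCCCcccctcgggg
*Rel*, chr11:23771042-23771071, minus strand: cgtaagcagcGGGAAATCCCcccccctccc

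Counted in bases from the start site, with upstream positions negative, the match in *Nfkbia* lay at -29 to -20, the one shown for *Nfkb2* at -39 to -30, the one shown for *Rel* at -92 to -83, the one in *Nfkbie* at -106 to -97 and the one shown for *Tnfaip3* at -125 to -116. By GENCODE M21 the windows of *Nfkbia*, *Nfkbie* and *Rel* were intergenic, that of *Tnfaip3* was in an intron of a longer *Tnfaip3* transcript, and that of *Nfkb2* was in a non-coding exon stretch of *Nfkb2* and of AC114539.1. Of the 5 members with a match, 1 was called (*Nfkbia*), and the other 4 were not. The RefSeq start sites of *Nfkbie* and *Nfkbib* were not found in GENCODE M21 transcripts, so for these genes the window and its distances rest on RefSeq alone. For *Nfkb2*, 2 of its 3 RefSeq start sites were found, and the check did not record which. A match describes the letters of the window and not a bound site.

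**Figure D4:**
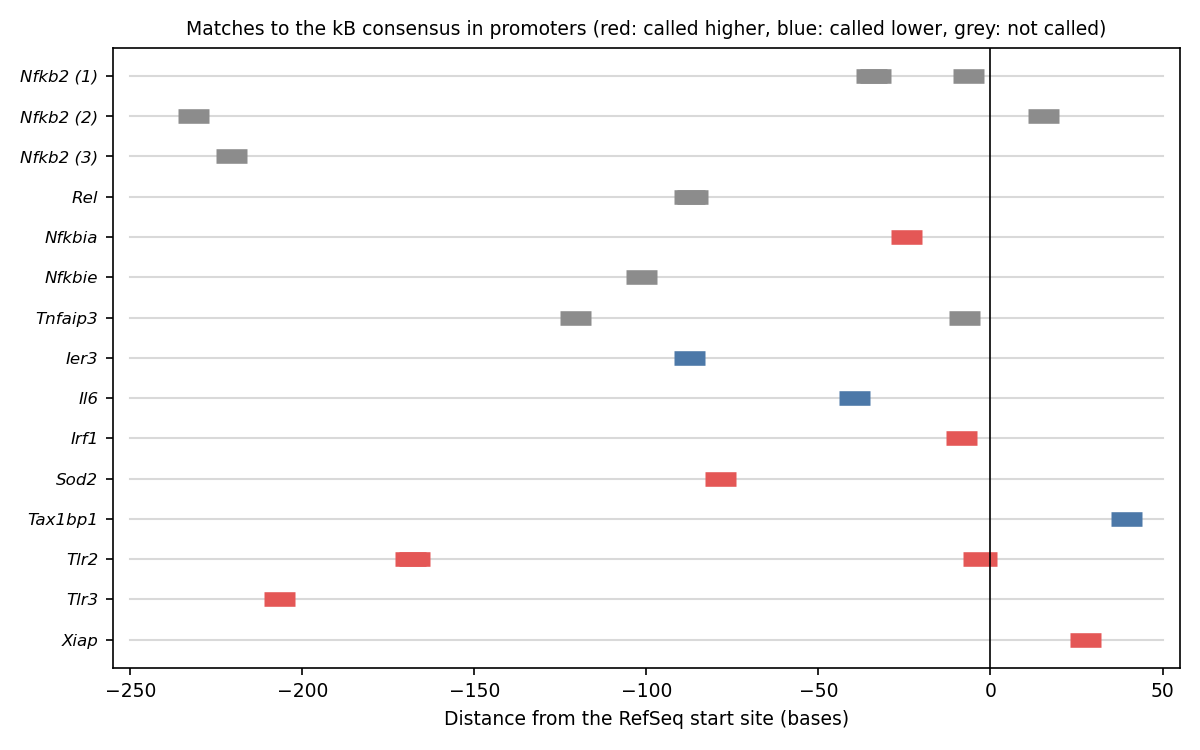
Position of each match to the κB consensus in bases from the RefSeq start site (x axis, with the start site at the vertical line) in the promoters of members and of called pathway genes (rows). Numbers in brackets after *Nfkb2* tell its start sites apart. Red is called higher, blue called lower and grey not called; of the members with a match, *Nfkbia* (at -29 to -20) is red and the other 4 are grey.

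The other genes of the pathway were taken as 5 lists with 98 genes, of which 83 were tested. Of these, 13 rose and 5 fell in shNAT10, beside 8.41% and 7.83% of all genes tested. A limma adjusted p under 0.05 was reached by 1 of the 83, beside 0.437% of all genes, and one in the limma-voom fit by 16, beside 7.88%. The median log2 fold change over the 83 genes was 0.04. The calls lay among receptors, adaptors and target genes, and none among the kinases or the atypical IκB proteins.

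Of the 5 atypical and nuclear IκB proteins and related repressors, 0 rose and 0 fell, beside 8.41% and 7.83% of all genes, with a median log2 fold change of -0.11. The most abundant was *Nfkbil1*, an IκB-like protein, at 21.6 and 19.2 FPKM in shNC and at 22.6 and 21.7 FPKM in shNAT10. *Nfkbiz* encodes IκBζ, a nuclear co-activator for secondary response genes. Its libraries were at 6.21 and 5.54 FPKM in shNC and at 4.95 and 4.24 FPKM in shNAT10, with a log2 fold change of -0.35 (limma adjusted p = 0.326). *Nkrf* encodes a repressor that binds DNA near κB sites, and its log2 fold change was -0.11.

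Of the 13 kinases, 0 rose and 0 fell, beside 8.41% and 7.83% of all genes, with a median log2 fold change of 0.04 and a range of -0.19 to 0.37. *Chuk* encodes IKKα, the kinase that drives p100 processing. It was at 27.8 and 27.3 FPKM in shNC and at 24.3 and 24.2 FPKM in shNAT10, with a log2 fold change of -0.19 that stayed under the fold threshold. *Ikbkb*, which encodes the canonical kinase IKKβ, was lower, at 0.95 and 1.07 FPKM in shNC and at 0.96 and 1.12 FPKM in shNAT10. It was named after its values were seen. Its joined exons span 19078 bases against 5087 for *Chuk*, and it had 1012 fragments over the 4 libraries against 6752. The gap in FPKM thus rests in part on the length used. *Map3k7*, which encodes TAK1, the kinase above the IκB kinases, had a log2 fold change of 0.18, and *Irak1*, a kinase of the Toll-like and interleukin-1 receptor complexes, one of 0.01.

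Among 27 adaptors and ubiquitin enzymes, 25 were tested, 2 rose and 2 fell, near the shares of all genes (8.41% and 7.83%). *Ube2n* encodes Ubc13, the ubiquitin-conjugating enzyme that builds K63-linked chains. Its libraries were at 7.42 and 6.81 FPKM in shNC and at 10.2 and 9.12 FPKM in shNAT10, for a log2 fold change of 0.44 (limma adjusted p = 0.205). *Traf6* encodes the ubiquitin ligase that works with Ubc13 below Toll-like receptors. It moved the other way, from 6.70 and 6.88 FPKM in shNC to 4.69 and 5.16 FPKM in shNAT10, for a log2 fold change of -0.46 (limma adjusted p = 0.187). *Xiap*, an inhibitor of apoptosis, rose with a log2 fold change of 0.39, and *Tax1bp1*, an adaptor that helps A20 act on its substrates, fell from 39.9 and 45.2 FPKM to 33.3 and 31.7 FPKM, a log2 fold change of -0.39. Each of these calls depended on single libraries. *Traf6* lost its call without shNC replicate 2 (-0.44), *Ube2n* without shNC replicate 2 (0.38) or shNAT10 replicate 1 (0.35), *Xiap* without shNC replicate 1 (0.27), shNAT10 replicate 1 (0.36) or shNAT10 replicate 2 (0.42), and *Tax1bp1* without shNAT10 replicate 1 (-0.42) or replicate 2 (-0.35). The abundant *Rnf11* and *Otulin*, which encode partners or editors of ubiquitin chains, had log2 fold changes of 0.04 and -0.14.

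Among 18 receptors, 15 were tested, 4 rose and 0 fell, beside 8.41% and 7.83% of all genes, with a median log2 fold change of 0.40. *Tlr4* encodes the lipopolysaccharide receptor. It was at 4.44 and 4.65 FPKM in shNC and at 7.43 in each shNAT10 library (log2 fold change 0.70, limma adjusted p = 0.0933). *Il1rl1* encodes ST2, the interleukin-33 receptor known from mast cells. It was the most abundant receptor and rose from 101.3 and 90.9 FPKM to 145.9 and 154.9 FPKM, a log2 fold change of 0.65 (limma adjusted p = 0.0890). *Tlr2*, a receptor for bacterial lipoproteins, was at 0.34 and 0.45 FPKM in shNC and at 1.35 and 1.19 FPKM in shNAT10, for a log2 fold change of 1.48. *Tlr3*, a receptor for double-stranded RNA, was at 0.13 and 0.19 FPKM in shNC and at 0.73 and 0.86 FPKM in shNAT10, for a log2 fold change of 1.78. An exon of *Tlr3* overlaps one of Gm45542, so reads there cannot be assigned. The groups of these 4 genes did not overlap, and their calls held with each library left out in turn. *Tnfrsf12a*, the receptor of TWEAK, was at 34.7 and 43.5 FPKM in shNC and at 43.8 and 48.0 FPKM in shNAT10 and was called only without shNC replicate 2 (0.40). *Tnfrsf1a*, the main TNF receptor, had a log2 fold change of 0.50 (limma adjusted p = 0.451) and overlapping groups. Its value ran from 0.20 without shNAT10 replicate 1 to 0.80 without shNAT10 replicate 2, with 0.26 without shNC replicate 2, and it was called higher with the replicate block and in limma-voom.

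Among 35 textbook target genes, 25 were tested, 7 rose and 3 fell, beside 8.41% and 7.83% of all genes, with a median log2 fold change of -0.05. *Ccl2* encodes a chemokine for monocytes. It rose from 55.1 and 59.1 FPKM in shNC to 129.2 and 118.9 FPKM in shNAT10 (log2 fold change 1.12, SE 0.091, limma adjusted p = 0.0452). It was the 1 pathway gene with a limma adjusted p under 0.05, but that value was 0.0542 and 0.0584 with other pseudocounts, 0.101 with no filter, 0.181 without the trend, 0.0765 with the replicate block and 0.206 to 0.268 with a library left out. With a mean of at least 1 FPKM, *Il6* and *Vcam1* were under 0.05 too (limma adjusted p = 0.0321 and 0.0473). *Irf1*, a transcription factor of interferon responses, rose from 4.07 and 4.77 FPKM to 7.71 and 7.51 FPKM, a log2 fold change of 0.78. *Il6* encodes the cytokine interleukin-6. It fell from 25.7 and 27.3 FPKM to 15.2 and 14.1 FPKM, a log2 fold change of -0.85 (limma adjusted p = 0.0603), while the limma-voom fit placed it among the genes with an adjusted p under 0.05. *Ccl5*, a chemokine for T cells, was at 5.06 and 11.1 FPKM in shNC and at 3.24 and 3.74 FPKM in shNAT10, and its spread within shNC was wide. Its log2 fold change of -1.08 was -0.53 without shNC replicate 2, -0.98 without shNAT10 replicate 1 and -1.18 without shNAT10 replicate 2. None of these 3 values passed the test. Without shNC replicate 1 the value was -1.64, so its size rested on the shNC library used.

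Further target genes were named after their values were seen. *Vcam1*, an adhesion molecule, rose with a log2 fold change of 0.74 and *Sod2*, a mitochondrial antioxidant enzyme, with one of 0.49, and both calls held with each library left out. *Cd44*, the hyaluronan receptor, rose by 0.44 on the log2 scale, a call lost without shNAT10 replicate 1 (0.41) or replicate 2 (0.47). *Csf2*, which encodes GM-CSF, rose by 0.65 and lost its call without shNC replicate 1 (0.59), shNC replicate 2 (0.71) or shNAT10 replicate 2 (0.55). *Relt*, a receptor of the TNF family, rose by 0.32 and lost its call whichever library was left out, with values of 0.22 to 0.41. *Ier3*, an early response gene, had a log2 fold change of -0.54 that was no longer called without shNAT10 replicate 1 (-0.52) or replicate 2 (-0.56). It was still called at -0.80 without shNC replicate 1 and at -0.29 without shNC replicate 2, so its size rested on the shNC library used. Of the abundant target genes, *Ptgs2*, which encodes cyclooxygenase-2, was at 54.0 and 59.9 FPKM in shNC and at 48.7 and 47.8 FPKM in shNAT10, and was called lower only without shNC replicate 1 (-0.31). *Cxcl1*, a neutrophil chemokine, was at 27.3 and 28.1 FPKM in shNC and at 32.6 and 33.6 FPKM in shNAT10, under the fold threshold with a log2 fold change of 0.26, and was called without shNC replicate 2 (0.28) or shNAT10 replicate 1 (0.28).

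**Figure D5:**
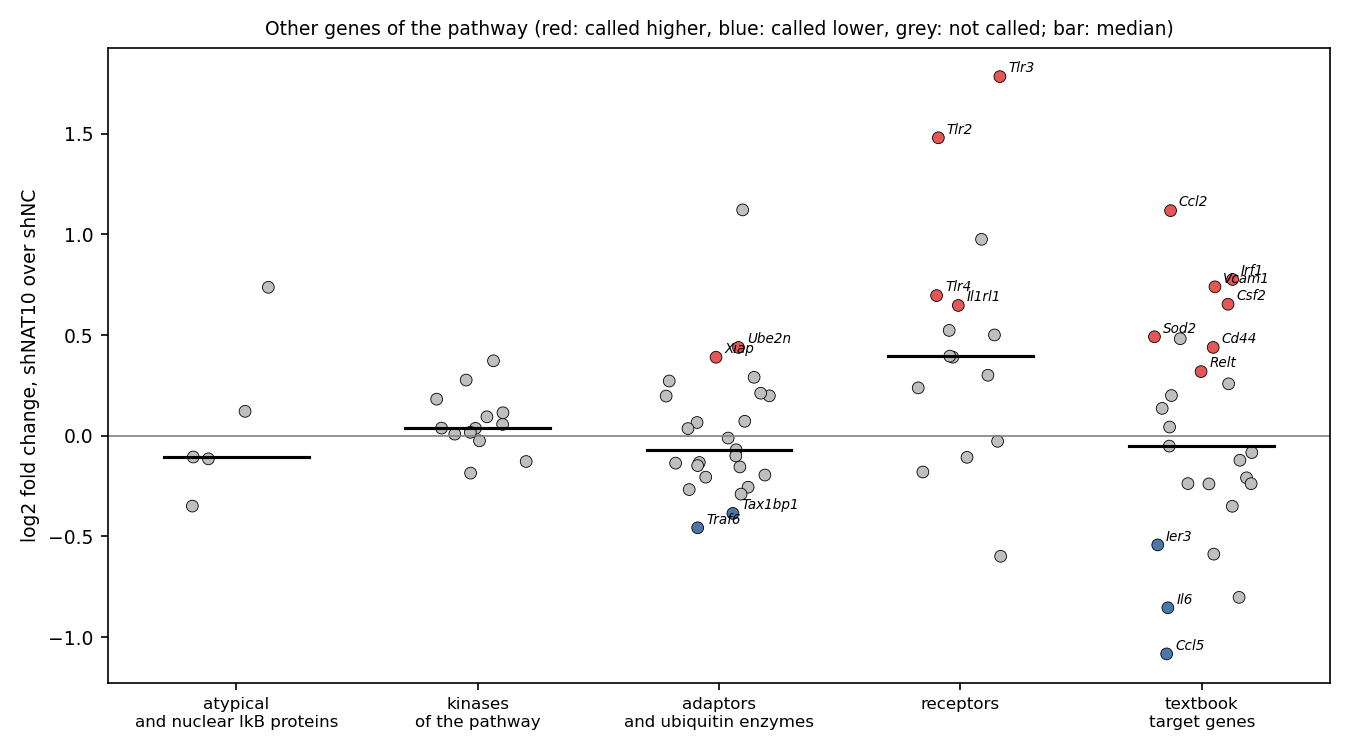
Log2 fold change (y axis), shNAT10 over shNC, of each tested gene of the 5 pathway lists (x axis), with the list's median as a bar and horizontal jitter for legibility. Red points are called higher, blue points called lower and grey points not called; the receptors have 4 red and no blue points, and the target genes 7 red and 3 blue points.

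Matches to the κB consensus were found among target genes that rose and among those that fell. A match was held by 11 of the 27 target genes with a promoter entry (40.7%, beside 9.55% of all genes), by 2 of the 5 such genes that rose (*Irf1* and *Sod2*) and by both that fell (*Il6* and *Ier3*). Their windows are shown to set the letters beside those of *Nfkbia*. The match of *Ier3*, like that of *Nfkbia*, fits the consensus on the opposite strand.
*Irf1*, chr11:53769991-53770013, plus strand: agtccgggccGGGGAATCCCgct
*Sod2*, chr17:13007746-13007775, plus strand: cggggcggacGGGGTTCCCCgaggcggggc
*Il6*, chr5:30013060-30013089, plus strand: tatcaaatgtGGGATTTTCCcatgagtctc
*Ier3*, chr17:35821611-35821640, plus strand: tgcgaagggcGGAGTTCCCCccggcccggc

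The match lay at -13 to -4 in *Irf1*, where the window ends at the start site, at -83 to -74 in *Sod2*, at -44 to -35 in *Il6* and at -92 to -83 in *Ier3*. The window of *Sod2* was in an intron by GENCODE M21 and the other windows were intergenic. Of the other pathway genes, the receptors *Tlr2* and *Tlr3*, both called higher, also held a match upstream of the start site. By GENCODE M21 their windows lay in exons, of *Tlr2* and of *Tlr3* and Gm45542. Genes that were not called, such as *Il1r1*, *Map3k7*, *Traf3* and *Tnip1*, held upstream matches too. At any position, a match was held by 3 of 15 receptors with an entry, 7 of 20 adaptors and ubiquitin enzymes and 2 of 11 kinases.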

How the data were processed

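Long RNA-seq of 2 shNC and 2 shNAT10 libraries of FGSCs was used, grouped by the sample titles. The study's methods give rRNA depletion (Epi Mini LongRNA-seq kit), whereas the labels name mRNA isolation with an Oligotex kit and 2 mRNA library kits. The authors deposited FPKM per gene, made by their processing with cutadapt, HISAT2 and mm10, and named DESeq2 for the comparison; the annotation, counting program and strand setting are not given in the sources used here. A further deposited table with the authors' fold changes and p-values was not used.

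Fold changes are on the log2(FPKM + 0.1) scale, which understates those of low genes, for the 20116 genes with a mean of at least 0.1 FPKM. Groups were compared by limma 3.58.1 in R 4.3.3 (trend on, two-sided), with the Benjamini-Hochberg adjustment over all genes tested. Python 3.11.15 was used for the rest. Fragments were recovered with GENCODE M21 exon lengths, for which 96.0% to 96.6% of values under 50 fragments came within 0.02 of a whole number, and were fitted with limma-voom. The scripts were tested on simulated data.

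The members, pathway lists and markers were chosen with earlier results of these data known. Named were all members, *Nat10*, up to 4 called genes per pathway list by size of change and the 3 most abundant genes of each list; other names were given after their values were seen. Alternatives were other pseudocounts and filters, scaling to the same FPKM total without rRNA-related loci, a replicate block, limma with no trend, limma-voom and leaving out each library. Same-numbered libraries did not pair (correlation of deviations 0.0071).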

Additional observations from a re-analysis of the deposited data

How the results depend on the processing

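The genes called in shNAT10 numbered 1691 higher and 1576 lower. Leaving out each library in turn gave 1108 to 1734 higher and 899 to 1659 lower, with the fewest of either kind without shNAT10 replicate 1. In these fits the lone library is assumed to vary like the other group. When FPKM totals apart from rRNA-related loci were made equal, 2132 were higher and 1144 lower and the median of all genes was 0.07. An adjusted p under 0.05 was reached by 67 higher and 21 lower genes, by 0 in either direction with a pseudocount of 1 or 0.01, no filter, limma without the trend, the replicate block or any library left out (unadjusted p under 0.05 for 2011 to 3656 genes), and by 849 higher and 733 lower genes in limma-voom. A mean of at least 1 FPKM gave 185 and 111 such genes.

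Members called higher were 0 to 1 with a library left out (0 without either shNAT10 replicate) and 1 under every other alternative. Members called lower were 1 with no filter (*Nfkbib*), 1 in limma-voom (*Birc3*) and 0 to 1 with a library left out (*Nfkb1* without shNC replicate 2, *Nfkbib* without shNAT10 replicate 2). The replicate block left 1 member higher and 0 lower, with 1587 and 1527 genes called, and changed no member's call. The median of the inhibitors and feedback targets ran from -0.27 to 0.24 with a library left out, and that of the subunits from -0.18 to 0.02.

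Among the other pathway genes named by the rule or called, calls were lost by *Ccl5*, *Cd44*, *Ier3*, *Relt*, *Tax1bp1*, *Ube2n* and *Xiap* in limma without the trend, by *Ccl5* with no filter, by *Csf2* in limma-voom, by *Ier3* under equal totals and by *Relt* with the replicate block. Calls were gained by *Tnfrsf1a* with the block and in limma-voom, by *Nfkbiz* in limma-voom and by *Cxcl1* under equal totals. Over all 83 pathway genes tested, limma-voom called 8 that limma did not and missed 1 that limma called.

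With a library left out, the log2 fold change took both signs for 25 of the 83 pathway genes. Among members and pathway genes named by the rule or called, it did so for *Nfkb2* (-0.0259 to 0.23), *Relb* (-0.18 to 0.0192), *Nfkbie* (-0.0011 to 0.38), *Tnfaip3* (-0.59 to 0.24), *Nkrf* (-0.30 to 0.0917), *Irak1* (-0.0771 to 0.0929) and *Rnf11* (-0.0628 to 0.13), none of which was called. *Ikbkb* (-0.0632 to 0.14) was a further gene of this kind. The cause was not tested. With 2 libraries per group, member intervals as wide as that of *Tnfaip3* limit what could be detected.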
